A study of Homo sapiens with 16 samples.

Results

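The transcripts of 10 transcription factors that define the germinal centre B cell were followed in 16 RNA-seq libraries of B-cell lymphoma lines. The members were the rows of the count files with the gene symbols BCL6, PAX5, EBF1, SPIB, SPI1, POU2AF1, POU2F2, MEF2B, MEF2C and BACH2, which are 10 of the 62714 genes listed. All 10 had counts in every library and passed the filter on low counts in every comparison. RNA was sequenced from pools of 4 lymphoma cell lines that carried the pLENTI-CRISPRv.2 lentiviral vector with 4 guides against either CREBBP, the gene of a histone acetyltransferase that is often mutated in follicular lymphoma, or the AAVS site, an integration site of adeno-associated virus, as a control. Each pool was cultured for 4 h without IL4 (baseline) or with 10 ng/ml of IL4, a T-cell cytokine that signals to the nucleus through STAT6. The AAVS and CREBBP pools (genotypes AAVS -/- and CREBBP -/- in the labels), each at baseline and with IL4, form 4 groups that each held 1 library per line, so n = 4 lines throughout, as the labels give them. Lines 1 and 3 differed in 1 of 21181 genes, against 3918 to 6548 genes for the other pairs of lines, so they may not be separate lines, in which case n would be smaller in every test. Line 1 was SU-DHL4 and line 4 was DOHH2. For lines 2 and 3 the sample titles name OCI-LY7 and SU-DHL10, and the cell line entries name them in the reverse order, so these lines are given here by number. Pools are mixtures of edited cells and not clones, and each line was targeted in 1 pool per target, so a difference between CREBBP and AAVS pools and a difference between separately grown pools cannot be told apart within a line.

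A germinal centre is the site in a lymph node where activated B cells divide rapidly, mutate their antibody genes and are selected. PAX5 and EBF1 set and keep B-cell identity, SPIB and SPI1 (PU.1) are related ETS factors, and POU2F2 (OCT2) binds the octamer motif of B-cell promoters together with its coactivator POU2AF1 (OBF1). BCL6 is the repressor that holds cells in the germinal centre state, MEF2B and MEF2C are MADS-box factors that act on genes of that state, including BCL6 in the case of MEF2B, and BACH2 is a repressor of plasma cell differentiation. CREBBP acetylates histones at enhancers on which BCL6 acts as a repressor, and IL4 is among the signals that helper T cells give to germinal centre B cells.

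The promoters of the members are shown because IL4 acts through STAT6 and because POU2F2 and POU2AF1 act through octamers. RefSeq windows of GRCh38.p14, from 250 bases before to 50 after an annotated start, were found for 8 of the 10 genes, with 15 windows in all, and SPI1 and POU2AF1 had none. Both strands of each window were searched for the octamer ATTTGCAT, the STAT6 spacing (TTC and GAA with 4 bases between them), the general STAT spacing TTCNNNGAA, the MEF2 motif (CTA and TAG with 4 bases between them), the EBF motif (TCCC and GGGA with 2 bases between them), the PU.1 motif GAGGAAGT and the AP-1 motif TGANTCA, which is also the core of the longer site to which BACH2 binds. These were held by 1.77%, 6.44%, 7.66%, 2.73%, 1.21%, 2.59% and 7.71% of all 35116 windows, in that order. At least 1 of the motifs was found in 7 of the 15 windows. The share of all windows with any of the motifs is not given here, and several of the 15 belong to MEF2C, so this count is not 1 per factor. Below are the BCL6 window, which had the most matches, the MEF2B window, which had an octamer, and the BACH2 window, whose gene had the widest range of levels. They run 5′ to 3′ on the strand of the gene and end 30 bases after the start, with matches in capitals. They lie at chr3:187745439-187745718, chr19:19170234-19170513 and chr6:90296814-90297093, all on the minus strand.
BCL6: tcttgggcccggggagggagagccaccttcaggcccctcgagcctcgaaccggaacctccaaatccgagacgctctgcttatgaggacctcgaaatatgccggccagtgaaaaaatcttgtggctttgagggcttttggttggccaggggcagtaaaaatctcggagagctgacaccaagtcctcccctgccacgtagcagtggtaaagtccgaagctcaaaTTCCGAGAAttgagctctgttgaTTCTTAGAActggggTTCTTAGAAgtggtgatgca
MEF2B: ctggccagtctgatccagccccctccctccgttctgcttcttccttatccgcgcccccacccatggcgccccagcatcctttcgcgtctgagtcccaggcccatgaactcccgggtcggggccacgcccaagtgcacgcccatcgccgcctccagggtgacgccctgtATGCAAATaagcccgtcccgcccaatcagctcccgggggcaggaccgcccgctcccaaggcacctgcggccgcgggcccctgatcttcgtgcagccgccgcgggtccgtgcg
BACH2: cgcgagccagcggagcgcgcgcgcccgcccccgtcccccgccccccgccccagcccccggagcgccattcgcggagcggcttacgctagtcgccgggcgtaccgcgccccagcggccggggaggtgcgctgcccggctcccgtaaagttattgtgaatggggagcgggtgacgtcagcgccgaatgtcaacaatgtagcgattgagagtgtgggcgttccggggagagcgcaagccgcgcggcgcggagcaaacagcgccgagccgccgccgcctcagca

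In this BCL6 window the STAT spacing occurred 4 times, with first bases at -28, -5, 10 and 36 from the start base, and the last of these lies beyond the printed stretch. Of all 35116 windows, 7 held 4 or more such matches. The STAT6 spacing did not occur in either BCL6 window. The MEF2B window held the octamer as ATGCAAAT at -82, and the BACH2 window held none of the 7 motifs. Of the 7 MEF2C windows, 1 held an octamer, 1 held the STAT6 spacing, 1 held the STAT spacing and 1 held the AP-1 motif at 2 positions. A match is a run of letters and was not tested for binding.

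The libraries held between 19649735 and 61981976 counts, and the AAVS IL4 libraries had the lowest median total (29790814 counts). The B-cell markers MS4A1, a surface protein of B cells, and CD74, the invariant chain of MHC class II, were abundant in all 16 libraries, at 588 to 2275 CPM (counts per 1000000 counts of the library) and 1173 to 7267 CPM. The 12 germinal centre identity genes summed to 880.4 to 2163 CPM. The AAVS IL4 libraries also held transcripts that were at or near 0 elsewhere. IGHM was at 951, 711, 1711 and 138 CPM in lines 1 to 4 there and at most 0.0696 CPM in the other 12 libraries, and CD44 was at 67.5 to 941 CPM against at most 0.472 CPM. The sum of 12 T-cell markers was 40.0 to 262 CPM in AAVS IL4 and 2.18 to 38.5 CPM elsewhere, that of 12 myeloid markers 6.16 to 27.0 CPM against 0.571 to 4.75 CPM, and that of 9 naive, memory and other B-cell markers 564 to 3698 CPM against 56.0 to 301 CPM. No marker of these 3 lists was at 0 in all AAVS IL4 libraries, whereas CD2, BCL11B, GATA3, IGHD and CD163, among others, were at 0 in all 4 lines of 1 or more of the other groups. The part of these transcripts in any AAVS IL4 value below was not tested, and in such bulk samples fewer cells of a kind and less RNA per cell cannot be told apart. A further list, of 8 stromal and endothelial markers, did not stand higher there. Its sum was 3.30 to 42.8 CPM in AAVS IL4 and 0.174 to 51.1 CPM elsewhere. The CREBBP transcript itself was at 269, 205, 359.6 and 246 CPM in AAVS baseline, 278, 191, 187 and 270.3 CPM in CREBBP baseline, 315, 190.5, 315 and 379 CPM in AAVS IL4 and 214, 69.9, 245 and 218 CPM in CREBBP IL4. Its fitted difference between CREBBP and AAVS pools did not pass the test (log2 fold change -0.11 ± 0.21 (SE) at baseline, adjusted p = 0.851, and -0.51 ± 0.23 with IL4, adjusted p = 0.218, edgeR), so this test of the transcript level did not tell the targets apart. With IL4 and after TMM scaling it was at 285, 172, 277 and 327 CPM in AAVS pools and 228, 96.5, 263 and 205 CPM in CREBBP pools. Each CREBBP pool was the lower of its line, where 21.3% of all genes were lower in all 4 lines. The authors reported loss of the CREBBP protein in the targeted pools by immunoblotting. The library of CREBBP IL4 line 2 stood apart in that 18.1% of its counts came from RN7SK, RN7SL1 and RN7SL2, the highest share of the 16 libraries (4.41% to 18.1%). It was the lowest of the 16 libraries for 9 of the 10 members on the CPM scale and for 7 after TMM scaling, in which its factor was 0.725. Next in this share were CREBBP baseline line 3, at 13.3% with a TMM factor of 0.787, and AAVS IL4 line 3, at 10.7% with a factor of 1.13.

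**Figure D1:**
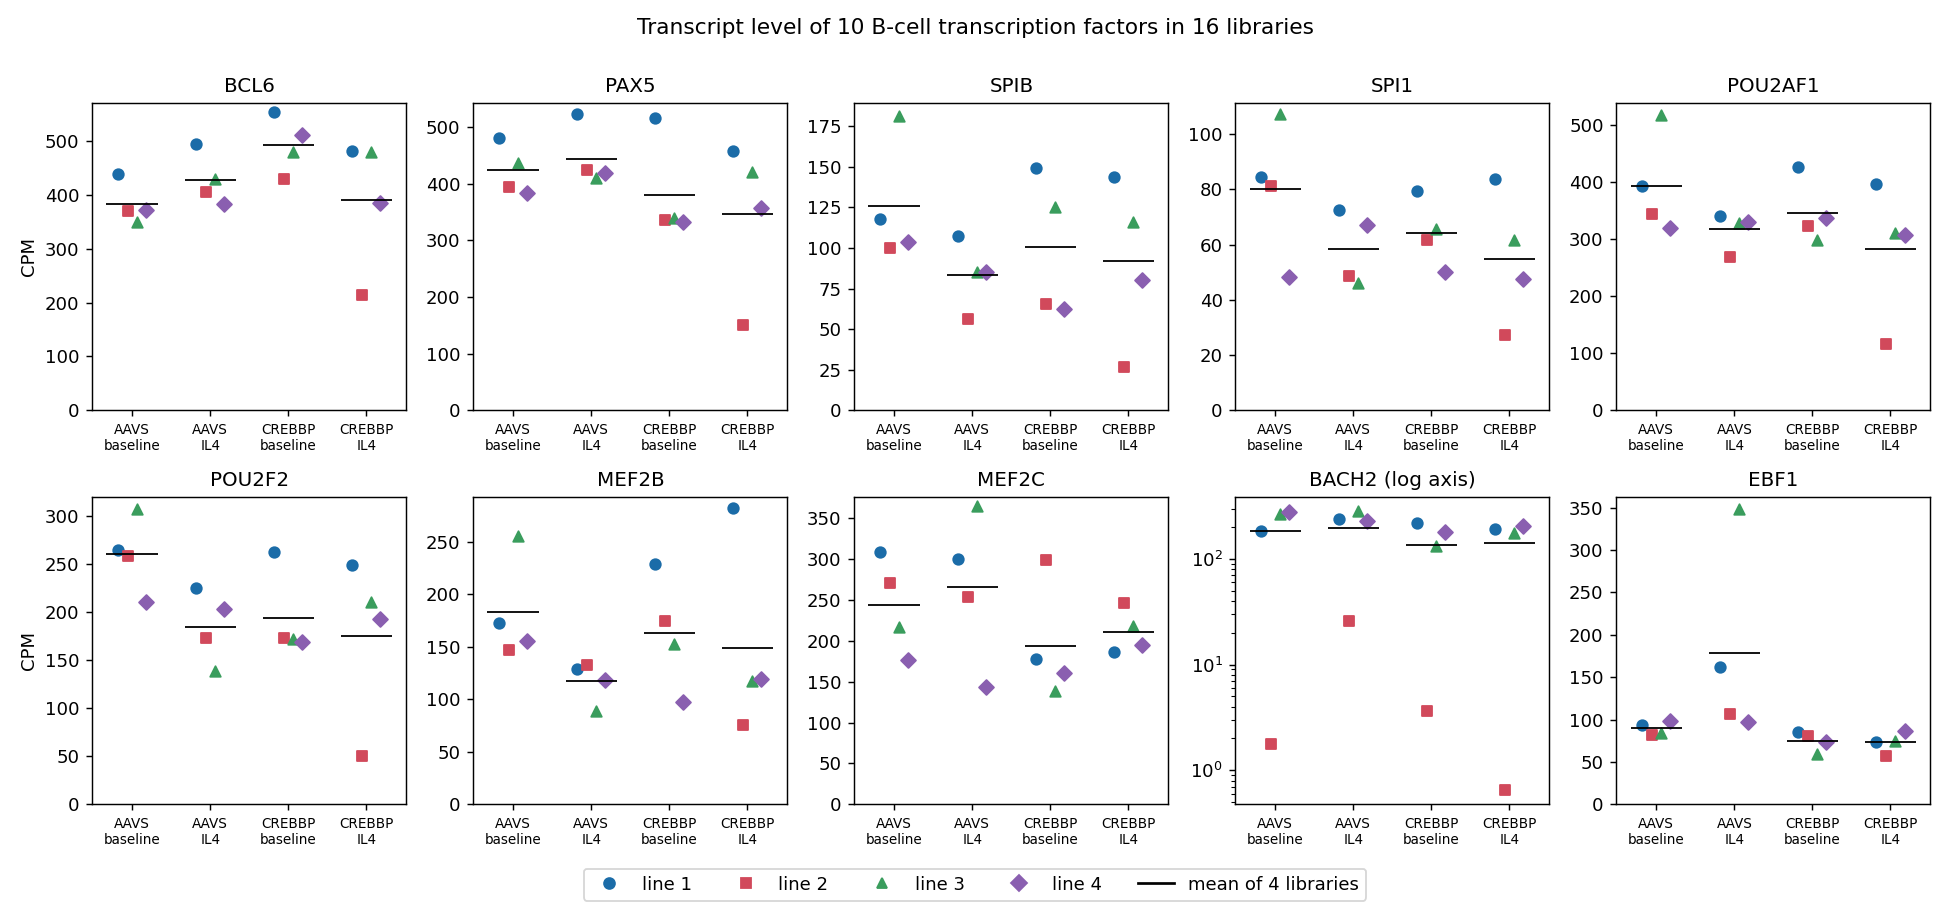
Level of each of the 10 transcription factors in CPM (counts scaled to the total of the library, vertical axes from 0 on a linear scale, except BACH2 on a log scale) in the 4 groups; each symbol is 1 library, shaped and coloured by line, and the bar is the mean of 4 libraries. BACH2 of line 2 sits between 0.646 and 25.9 CPM in every group, EBF1 reaches 348 CPM in AAVS IL4 line 3, and the line 2 square of CREBBP IL4 is the lowest of its panel for 9 of the 10 genes.

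The 10 factors differed in level at baseline, and BACH2 was near 0 in line 2. Per kilobase of exon (GENCODE 44) the highest mean level in AAVS baseline was that of MEF2B, at 87.7 ± 23.9 CPM per kb (SD, n = 4), followed by BCL6 at 64.4 ± 6.55 and POU2AF1 at 56.2 ± 12.7. PAX5 (44.3 ± 4.65), SPI1 (39.4 ± 11.9), SPIB (29.3 ± 8.88), POU2F2 (28.7 ± 4.35) and MEF2C (20.7 ± 4.96) came next, and the lowest were BACH2 (16.9 ± 11.8) and EBF1 (14.2 ± 1.27), again as mean CPM per kb. The ranges over lines overlapped between every factor and the next in this order. The place of MEF2B rests on its short exon length of 2087 bases, of which 1602 are shared with the read-through gene BORCS8-MEF2B. In mean CPM, without division by length, MEF2B (183) was below PAX5 (424), POU2AF1 (393) and BCL6 (382), among others. The place of BACH2 rests on line 2 (0.165 CPM per kb), since in lines 1, 3 and 4 BACH2 was at 17.0, 24.4 and 25.8 CPM per kb and MEF2C at 26.3, 18.4 and 15.1. MEF2B was above BCL6, POU2AF1 above PAX5, and POU2F2 above MEF2C in 4 of 4 lines each.

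No factor passed the test (adjusted p under 0.05, Benjamini-Hochberg over all genes tested, edgeR's quasi-likelihood test, blocked by line) in any comparison of IL4 or of the CREBBP target. For IL4 in AAVS pools this was 0 of 10, where 2.4% of 20310 genes passed. For IL4 in CREBBP pools it was 0 of 10 with 0% of 18282 genes passing (502 genes, 2.75%, had an unadjusted p under 0.05, and DESeq2 called 1 gene). For CREBBP against AAVS pools at baseline it was 0 of 10 with 0% of 18936 genes passing (2422 genes, 12.8%, had an unadjusted p under 0.05, and DESeq2 called 514). For CREBBP against AAVS pools with IL4 it was 0 of 10 where 4.39% of 19581 genes passed, and for the difference in IL4 response between CREBBP and AAVS pools 0 of 10 where 0.638% of 21932 genes passed. The median fitted log2 fold change of the 10 factors, with that of all genes tested, was -0.18 and 0.014 for IL4 in AAVS pools, -0.25 and -0.038 for IL4 in CREBBP pools, -0.13 and -0.025 for the target at baseline, 0.016 and -0.053 for the target with IL4, and 0.21 and 0.051 for the difference in response. An unadjusted p under 0.05 was reached by SPIB for IL4 in AAVS pools and by BCL6 for the target at baseline, each 1 of 10 factors, where 16% and 12.8% of genes reached it. It was reached by 0 of 10 factors for the target with IL4 and for the difference in response, where 25.6% and 13.3% of genes reached it. In the IL4 comparison of CREBBP pools and in that of targets at baseline the groups overlapped for all 10 factors, and 0.377% and 1.66% of genes did not overlap. The comparisons share groups, so that the low or high value of a library enters more than 1 of them.

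**Figure D2:**
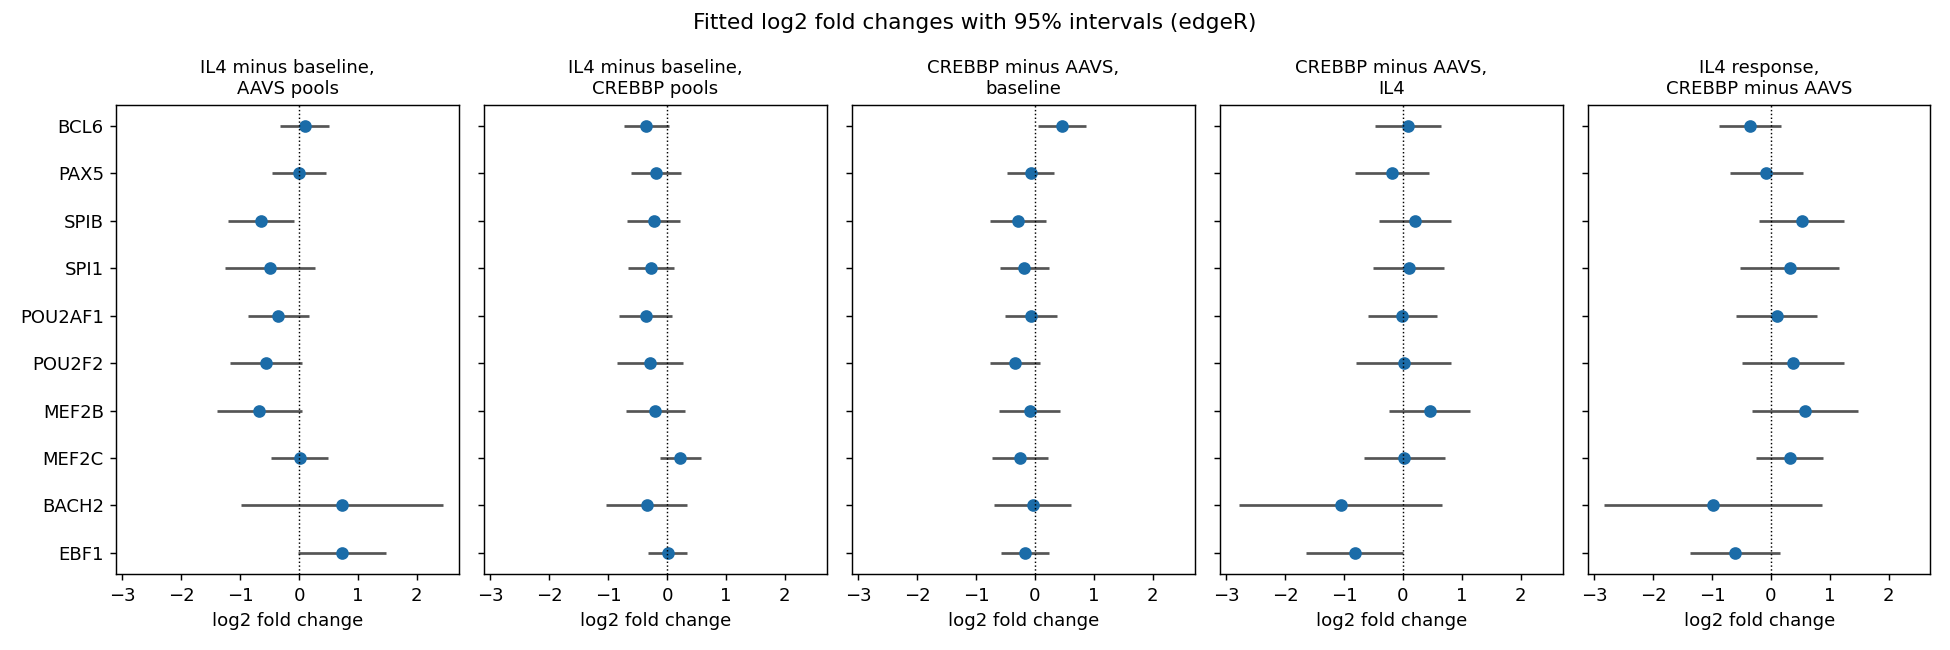
Fitted log2 fold change (point) with its 95% interval (bar) for each factor in the 4 comparisons and in the difference of the IL4 responses; the dotted line marks no difference. Intervals of BACH2 are the widest (from -0.99 to 2.45 for IL4 in AAVS pools), and the intervals of SPIB for IL4 in AAVS pools and of BCL6 at baseline lie to 1 side of 0 before adjustment over all genes.

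BCL6, the repressor of the germinal centre programme (chr3:187721377-187745725, minus strand; positions are those of GENCODE 44 on GRCh38), was higher in the CREBBP pools at baseline, but the difference did not pass the test. It was at 439, 369, 349 and 371 CPM in lines 1 to 4 of AAVS baseline and at 553, 428, 479 and 510.4 CPM in CREBBP baseline. Each CREBBP pool was above the AAVS pool of its line, but the groups overlapped. The fitted log2 fold change was 0.47 ± 0.18 (SE; 95% interval 0.060 to 0.87; unadjusted p = 0.0283, adjusted p = 0.345, edgeR). After TMM scaling 1 of 10 factors was higher in all 4 lines in this comparison, where 9.67% of genes were, and 1 of 10 was lower in all 4 lines (POU2F2), where 10.9% were. With IL4, BCL6 was at 494, 405, 428 and 382 CPM in the AAVS pools and 481, 214, 479 and 384 CPM in the CREBBP pools. The pools with IL4 were close in lines 1 and 4, and line 2 had the low CREBBP IL4 library named above. In AAVS pools the IL4 difference was 0.098 ± 0.17, with line 1 and line 3 lower and line 2 and line 4 higher after TMM scaling. In CREBBP pools it was -0.36 ± 0.17 (adjusted p = 0.924, edgeR), lower in all 4 lines after TMM scaling, while on the CPM scale line 3 was at 479 CPM in both. The difference between these responses was -0.35 ± 0.24, with an interval from -0.87 to 0.18.

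PAX5 (chr9:36833269-37034268, minus strand) and EBF1 (chr5:158695920-159099916, minus strand) together set B-cell identity. PAX5 was at 481, 394, 437 and 384 CPM in AAVS baseline, 524, 423, 409 and 419 CPM in AAVS IL4, 516, 335, 339.6 and 332 CPM in CREBBP baseline and 458, 150.3, 421 and 356 CPM in CREBBP IL4. Line 1 was the highest in every group, and no comparison separated the groups. All 5 fitted log2 differences of PAX5 were between -0.19 and 0.0023, with 95% intervals within -0.82 and 0.54.

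EBF1 was even across the 12 libraries outside AAVS IL4, at 57.3 to 98.9 CPM, the narrowest range of the 10 factors (1.72-fold from lowest to highest). Its values were 93.6, 82.0, 83.8 and 98.9 CPM in AAVS baseline, 85.4, 80.6, 59.0 and 73.7 CPM in CREBBP baseline and 73.1, 57.3, 74.7 and 86.6 CPM in CREBBP IL4. In AAVS IL4 it was at 162, 106, 348 and 97.7 CPM. Lines 1, 2 and 3 stood above the other 12 libraries there, while line 4 was slightly below its own baseline library. The IL4 difference in AAVS pools was 0.73 ± 0.31 on the log2 scale (adjusted p = 0.317, edgeR), and without line 3 it was 0.31. Against CREBBP IL4 the AAVS IL4 libraries did not overlap, with CREBBP lower in 4 of 4 lines (log2 fold change -0.82 ± 0.35, 95% interval -1.64 to 0.0042, adjusted p = 0.197, edgeR). EBF1 was the 1 factor of 10 whose groups did not overlap in that comparison, where 14.3% of genes did not, and the value without line 3 was -0.44. EBF1 followed the order of IGHM over the 4 AAVS IL4 libraries, from line 3 to 1, 2 and 4. It did not follow that of CD44, which was at 455, 67.5, 941 and 158 CPM in lines 1 to 4 there. The part of the naive, memory and other B-cell transcripts in this EBF1 level was not tested.

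**Figure D3:**
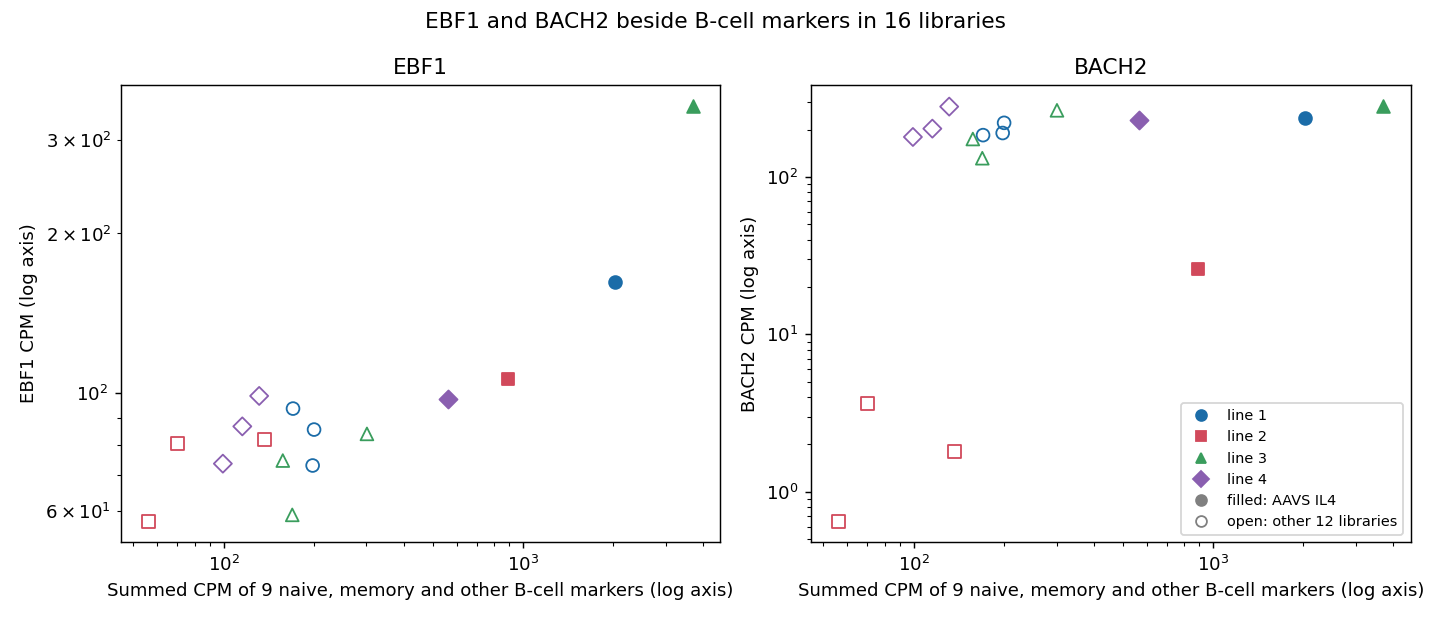
CPM of EBF1 (left) and BACH2 (right) against the summed CPM of 9 naive, memory and other B-cell markers in the 16 libraries, all axes logarithmic; filled symbols are the AAVS IL4 libraries and open symbols the other 12, shaped and coloured by line. The filled symbols lie at marker sums of 564 to 3698 CPM, to the right of all open ones, with EBF1 from 97.7 to 348 CPM and BACH2 of line 2 at 25.9 CPM.

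The ETS factors SPIB (chr19:50418938-50431314, plus strand) and SPI1 (chr11:47354860-47378547, minus strand) were lower in most AAVS IL4 libraries than at baseline. SPIB was at 118, 99.7, 181 and 103 CPM in AAVS baseline and at 108, 56.2, 85.2 and 85.4 CPM in AAVS IL4. Each line was lower with IL4, though line 1 with IL4 was above lines 2 and 4 at baseline. The log2 difference was -0.64 ± 0.23 (95% interval -1.20 to -0.085, unadjusted p = 0.0299, adjusted p = 0.257, edgeR). SPIB was 1 of 3 factors lower in all 4 lines in this comparison, with POU2F2 and MEF2B, where 14.5% of all genes were, and no factor was higher in all 4 lines, where 15.6% were. In CREBBP baseline SPIB was at 149, 65.2, 125 and 62.4 CPM, and in CREBBP IL4 at 144, 26.9, 116 and 80.4 CPM, a log2 difference of -0.22 ± 0.20. The difference between these responses was 0.52 ± 0.33, with an interval from -0.20 to 1.25.

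SPI1, the gene of PU.1, was at 84.6, 81.1, 107 and 48.2 CPM in AAVS baseline and 72.5, 48.5, 46.1 and 67.3 CPM in AAVS IL4. It was lower with IL4 in lines 1 to 3 and higher in line 4 (log2 difference -0.49 ± 0.32, at -0.23 without line 3 and -0.81 without line 4). In CREBBP baseline it was at 79.4, 61.7, 65.7 and 50.2 CPM, and in CREBBP IL4 at 83.6, 27.2, 61.7 and 47.4 CPM. These groups overlapped in both comparisons of the targets, with log2 differences of -0.18 ± 0.19 at baseline and 0.099 ± 0.26 with IL4. SPI1 is also a factor of myeloid cells. The 12 myeloid markers summed to 6.16 to 27.0 CPM in AAVS IL4 and to 0.571 to 4.75 CPM in the other libraries. The part of myeloid transcripts in the SPI1 level was not tested.

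The octamer factor POU2F2 (chr19:42086110-42196585, minus strand) and its coactivator POU2AF1 (chr11:111352255-111455630, minus strand) had closely similar profiles outside AAVS IL4 (Pearson r = 0.968 over 12 libraries). This was not particular to the pair, since PAX5 had r = 0.970 with POU2F2 and 0.938 with POU2AF1. The 12 libraries include the low line 2 library of CREBBP IL4. POU2F2 was at 265, 258, 307 and 211 CPM in AAVS baseline and 225, 173, 138 and 203 CPM in AAVS IL4, lower with IL4 in 4 of 4 lines (log2 difference -0.56 ± 0.26, adjusted p = 0.337, edgeR; -0.36 without line 3). It was at 262, 173, 172 and 169 CPM in CREBBP baseline and 249, 50.3, 210.3 and 193 CPM in CREBBP IL4. The CREBBP pools were below the AAVS pools at baseline in every line, by little in line 1 and by more in lines 2 and 3 (log2 difference -0.34 ± 0.19, adjusted p = 0.494, edgeR). With IL4 the fitted difference between targets was 0.010, with an interval from -0.79 to 0.81.

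POU2AF1 was at 393, 343, 518 and 319 CPM in AAVS baseline, 340.1, 268, 328 and 330.3 CPM in AAVS IL4, 427, 322, 299 and 336 CPM in CREBBP baseline and 396, 117, 311 and 307 CPM in CREBBP IL4. Line 3 of AAVS baseline and line 2 of CREBBP IL4 were the extremes. The log2 differences with IL4 were -0.35 ± 0.22 for AAVS pools and -0.36 ± 0.20 for CREBBP pools, the latter lower in 4 lines after TMM scaling but not in line 3 on the CPM scale. In CREBBP pools 2 of 10 factors (BCL6 and POU2AF1) were lower in all 4 lines after TMM scaling, where 6.25% of genes were. The target differences of POU2AF1 were -0.070 ± 0.20 at baseline and -0.012 ± 0.25 with IL4.

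MEF2B (chr19:19145567-19192131, minus strand), whose gene is recurrently mutated in germinal centre lymphomas, was at 173, 147, 256 and 156 CPM in AAVS baseline and 129, 133, 88.6 and 118 CPM in AAVS IL4. The highest IL4 library was below the lowest baseline library, and MEF2B was the 1 factor of 10 whose groups did not overlap in this comparison, where 7.04% of genes did not. The log2 difference was -0.68 ± 0.30 (95% interval -1.40 to 0.049, adjusted p = 0.332, edgeR), and -0.39 without line 3. In CREBBP baseline MEF2B was at 229, 175, 152 and 97.7 CPM, and in CREBBP IL4 at 283, 75.8, 117 and 119 CPM, with lines 1 and 4 higher and lines 2 and 3 lower. Its difference between targets with IL4 was 0.46 ± 0.29, at 0.19 without line 1 and 0.72 without line 2. MEF2B shares 1602 exon bases with the read-through gene BORCS8-MEF2B (18.2 to 68.0 CPM), so the division of reads between them is uncertain. With both counts summed, a choice made after seeing the data, no call for MEF2B changed and the IL4 difference in AAVS pools was -0.69.

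MEF2C (chr5:88717117-88904257, minus strand), the other MEF2 factor, was at 309, 271, 217 and 177 CPM in AAVS baseline and 299.5, 254, 365 and 143 CPM in AAVS IL4. Line 3 stood out as the highest with IL4, and the other lines were lower than at baseline (log2 difference 0.013 ± 0.20). In CREBBP baseline MEF2C was at 178, 298, 138 and 161 CPM, and in CREBBP IL4 at 186, 247, 218 and 195 CPM. It was the 1 factor of 10 that was higher in all 4 lines after TMM scaling, where 8.18% of genes were, although line 2 was lower on the CPM scale (log2 difference 0.23 ± 0.15, adjusted p = 0.924, edgeR). The opposite strand holds MEF2C-AS1 and MEF2C-AS2, which overlap its exons and reached 10.5 and 11.6 CPM.

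BACH2 (chr6:89926528-90296843, minus strand), the repressor that delays plasma cell differentiation, was close to absent in 1 line. In lines 1, 3 and 4 it was at 185, 266 and 280.5 CPM in AAVS baseline, 239, 284 and 231 CPM in AAVS IL4, 221, 132 and 179.8 CPM in CREBBP baseline and 191, 175 and 203 CPM in CREBBP IL4. In line 2 it was at 1.79, 25.9, 3.63 and 0.646 CPM in the same order, from 73, 879, 106 and 26 counts. Every line 2 library was thus below every library of the other lines, and among the line 2 libraries that of AAVS IL4 was the highest. That library held IGHM at 711 CPM and CD44 at 67.5 CPM, and the part of those transcripts in its BACH2 level was not tested. The fitted IL4 difference of BACH2 in AAVS pools was 0.73 ± 0.72, and without line 2 it was -0.056. Between targets with IL4 BACH2 was lower in 4 of 4 CREBBP pools (-1.06 ± 0.74, adjusted p = 0.394, edgeR), and without line 2 the difference was -0.20. BACH2 and EBF1 were the 2 of 10 factors lower in all 4 lines in that comparison, where 21.3% of genes were, and none was higher in all 4, where 16.5% were. At baseline the target difference was -0.041 ± 0.30 (-0.34 without line 2), and the difference in IL4 response was -0.99 ± 0.84 (0.073 without line 2).

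The levels of most factors differed among the lines. In the 12 libraries outside AAVS IL4, 7 of 10 factors differed among lines (adjusted p under 0.05, edgeR F test with the condition as a covariate), where 42.4% of 21181 genes did. The largest difference between a pair of lines had a median of 0.92 on the log2 scale over the 10 factors and of 1.36 over all genes. Libraries of a line share their source, so the test is of these 4 lines and not of kinds of lymphoma. BACH2 was lower in line 2 by far (log2 fold change against line 1 -6.84 ± 0.46, adjusted p = 3.2e-07), and without line 2 the remaining lines spanned 0.12 (adjusted p = 0.898). Shares of genes given here and below for pairs of lines count differences in either direction. Line 2 was below line 1 in 8 of 10 factors by the same edgeR test, in which 30.4% of genes differed. Beside BACH2 these were SPIB (-1.34 ± 0.28, adjusted p = 0.00286), POU2F2 (-0.96 ± 0.30, adjusted p = 0.0291), MEF2B (-0.92 ± 0.31, adjusted p = 0.0389), PAX5 (-0.88 ± 0.23, adjusted p = 0.0108), POU2AF1 (-0.83 ± 0.26, adjusted p = 0.0272), SPI1 (-0.73 ± 0.24, adjusted p = 0.0325) and BCL6 (-0.64 ± 0.21, adjusted p = 0.0322). The low library of CREBBP IL4 line 2 is among the 3 line 2 libraries of this fit.

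Line 4 was below line 1 in 4 factors, where 22.2% of genes differed. They were MEF2B (-1.17 ± 0.31, adjusted p = 0.0204, edgeR), SPIB (-1.04 ± 0.27, adjusted p = 0.0191), SPI1 (-1.02 ± 0.24, adjusted p = 0.0112) and PAX5 (-0.70 ± 0.23, adjusted p = 0.0418). MEF2C was the factor with a different order of lines, since line 2 was not below line 1 (0.26 ± 0.25) and line 4 was below line 2 (-0.84 ± 0.25, adjusted p = 0.0231, edgeR), a pair in which 30.9% of genes differed. Over all 4 lines MEF2C (adjusted p = 0.0760), BCL6 (adjusted p = 0.0530) and EBF1 (adjusted p = 0.622) did not pass the edgeR F test, and EBF1 had the narrowest span, 0.26. Line 3 was above line 2 in 5 factors (BACH2, SPIB, SPI1, PAX5 and POU2AF1), where 26.4% of genes differed, and line 4 was below line 3 in SPIB (-1.12 ± 0.27) and SPI1 (-0.99 ± 0.24), where 18.5% differed. Lines 1 and 3 were the closest pair, with no factor called and log2 differences from -0.34 (MEF2B) to 0.076 (SPIB). As given above, 1 gene of all tested (0.00472%) passed between lines 1 and 3.

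**Figure D4:**
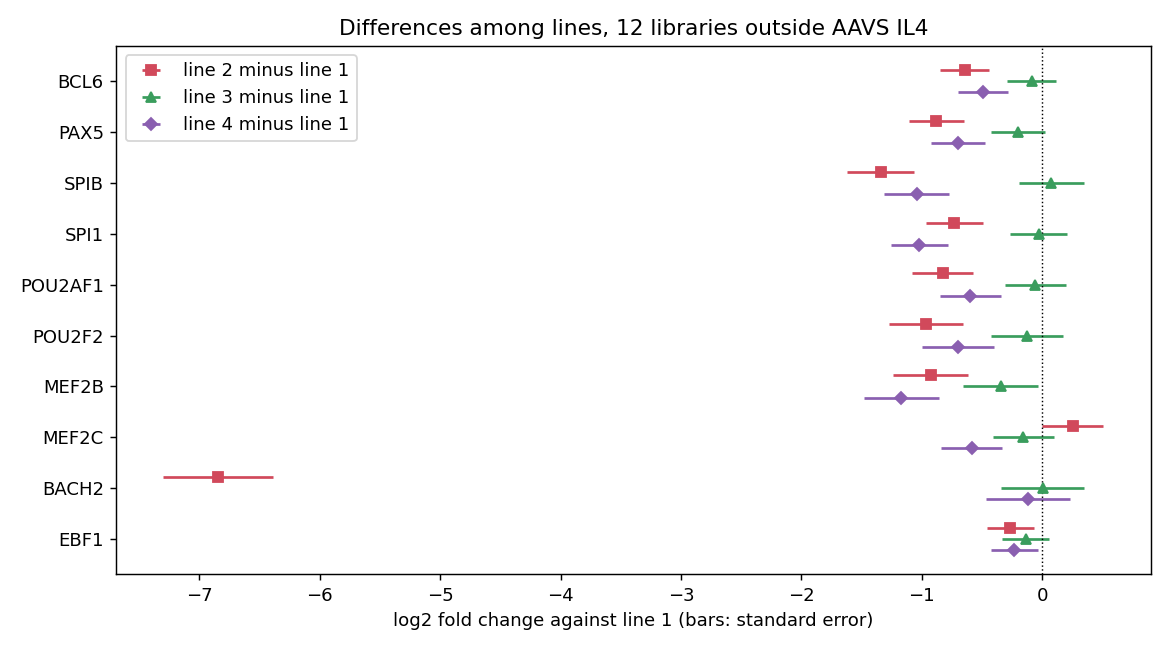
Fitted log2 fold change of lines 2, 3 and 4 against line 1 (horizontal axis) for each factor in the 12 libraries outside AAVS IL4; points are estimates and bars are standard errors. Line 3 lies near 0 for all 10 factors, lines 2 and 4 lie to the left for most, and BACH2 of line 2 lies at -6.84.

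Calls among lines were fewer in fits of 3 lines (2 to 5 of 10 factors), partly with spans that stayed about as large. Without line 2, BACH2 went from a span of 6.85 to 0.12 and POU2AF1 from 0.83 to 0.57, and both calls were lost. Without line 1 the calls of PAX5 (span 0.68), POU2AF1 (0.78), POU2F2 (0.85) and MEF2B (0.80, from 1.17) were lost and MEF2C passed. Without line 3 the calls of POU2AF1 and POU2F2 were lost while their spans were 0.82 and 0.97, against 0.83 and 0.96 in the fit of all lines. Without line 4 those of POU2AF1 (0.81), POU2F2 (0.96) and PAX5 (0.85, from 0.88) were lost with nearly the same spans, and those of SPI1 (0.71, from 1.02) and MEF2B (0.91) with smaller ones. SPIB passed in each of these 4 fits. With all lines, DESeq2 size factors in edgeR left 5 of 10 factors (adjusted p = 0.0612 for POU2AF1 and 0.0681 for POU2F2), and the DESeq2 test called 9, BCL6 and MEF2C among them.

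Related genes were read from lists of factors, partners and targets. Of 11 BCL6 corepressors, none passed in any of the 5 IL4 and target comparisons, and 5 of 11 differed among lines, close to the 42.4% of all genes, among them CTBP2, which was lower in line 2 than in line 1 (-5.91 ± 0.29 on the log2 scale). Of 29 other B-cell transcription factors tested for IL4 in AAVS pools, 3 rose (PRDM1, IRF4 and KLF2, the last by 5.82 ± 0.60 on the log2 scale), where 2.39% of all genes did, and none fell. PRDM1 and IRF4 were tested there through the AAVS IL4 libraries, in which they are high, so this count is not a result about the list. IRF4, a factor of plasma cells and of late germinal centre cells, was at 49.3 to 362 CPM in AAVS IL4 and at 0.0363 to 1.25 CPM in the other 12 libraries. Between targets with IL4, 6 of 28 of these factors were lower in the CREBBP pools and none was higher, where 3.42% and 0.965% of all genes were. PRDM1 and IRF4 are among the 6, with the same limit. Among lines 20 of 28 differed, where 42.4% of all genes did. LMO2, a germinal centre cofactor, was an example, higher in line 2 (2.91 ± 0.39) and lower in line 4 (-1.99 ± 0.37) than in line 1.

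Of 15 genes that BCL6 is known to repress, 5 rose with IL4 in AAVS pools, among them CD80 (5.26 ± 0.74 on the log2 scale) and 2 genes of the list above, PRDM1 and IRF4, where 2.39% of all genes did. PRDM1 and IRF4 did not pass the filter on low counts in the CREBBP pools and were tested here through the AAVS IL4 libraries, in which they are high, so the count is not set against that of the CREBBP pools. With IL4, 7 of the 15 were lower and 1 was higher in CREBBP pools, where 3.42% and 0.965% of all genes were. PRDM1 and IRF4 are among the 7, with the same limit, so this count is not a result about the list. BCL6 itself was at 382 to 494 CPM in AAVS IL4 against 349 to 439 CPM in AAVS baseline. After TMM scaling it was at 330 to 448 CPM against 318 to 478 CPM, with a fitted log2 difference of 0.098 ± 0.17. The part of BCL6 in the counts of this list was not tested. Of 14 genes that PAX5 and EBF1 activate, CR2 alone rose with IL4 in AAVS pools (6.92 ± 0.95), where 2.39% of all genes did. CR2 and CIITA, 2 of 13 tested, were lower in CREBBP than in AAVS pools with IL4 (CIITA -1.42 ± 0.26, adjusted p = 0.0346, edgeR), where 3.42% of all genes were. The filter on low counts kept 14 of these genes for IL4 in AAVS pools and 12 for IL4 in CREBBP pools. CIITA, the coactivator of MHC class II genes, was at 312 to 686 CPM in AAVS IL4 and at 122 to 327 CPM in the other 12 libraries. Among 12 germinal centre identity genes none passed for IL4 in either pool. CXCR4 alone was lower in CREBBP pools with IL4 (-1.69 ± 0.31, adjusted p = 0.0355, edgeR), where 3.42% of all genes were. Of the 12, 8 differed among lines, where 42.4% of all genes did. CD38, a surface enzyme of germinal centre and plasma cells, was lower in line 2 than in line 1 (-3.04 ± 0.43 on the log2 scale). For IL4 in AAVS pools 9 of 12 T-cell markers and 6 of 9 naive, memory and other B-cell markers were also called higher, where 2.39% of all genes were. The filter on low counts kept 4 and 5 of these markers for IL4 in CREBBP pools. CD2, BCL11B, GATA3, IGHM and IGHD were at 0 in all AAVS baseline libraries. Such markers were tested through the AAVS IL4 libraries, in which they are high, so these counts are not results about the lists. The part of these markers in the counts of the lists above was not tested.

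Across the 12 libraries outside AAVS IL4, PAX5, SPIB, SPI1, POU2AF1 and POU2F2 had closely similar profiles of log2(CPM + 1), with Pearson r between 0.852 and 0.970 for the 10 pairs among them. MEF2C stood apart, with r from -0.572 (with BACH2) to 0.267 (with EBF1). These libraries share lines, targets and the low line 2 library of CREBBP IL4, so the values are descriptions. Over all genes with a mean of at least 1 CPM, the profile nearest to that of BACH2 was GNB3 (r = 0.995), followed by GNAZ and DOCK6. Nearest to SPIB were HDAC5 (r = 0.985), MEF2D and PPP1R9B, to POU2F2 FMNL1 (r = 0.985), to POU2AF1 LEMD2 (r = 0.983), to SPI1 TMEM184B and to PAX5 PDPK1 (r = 0.976). The nearest profiles to MEF2B (ICAM3, r = 0.944), EBF1 (TRANK1, r = 0.932), BCL6 (DVL1, r = 0.929) and MEF2C (UTP25, r = 0.892) were less alike.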

How the data were processed

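RNA-seq of ribosomal RNA depleted RNA was available for 16 libraries (4 groups of 4 lines). Reads were trimmed, mapped to GRCh38 and assigned to genes by the authors with cutadapt 2.3, STAR 2.7.8a and RSEM 1.3.3, per the labels. The deposited values were estimated counts in whole numbers, with no normalization by the authors. The strand setting of the counting was not given in the sources used here. CPM, TMM factors, filterByExpr and quasi-likelihood tests were computed here with edgeR 4.0.16 (R 4.3.3), with the line as a block, and 95% intervals with the quantiles of that test. The difference in IL4 response was fitted in 1 model that had 1 term per pool. Line numbers pair the libraries because they stand for the same cell line; the deviations of libraries of a line from their group means had median correlations of 0.593, 0.711, 0.298 and 0.685. Where separate cultures are not stated, p-values measure the spread between these libraries. No pair of libraries in a group was a copy (chi-square per degree of freedom at least 98.7). Alternatives were DESeq2 size factors, no filter, DESeq2 1.42.0, no block and each line left out. The tests were tested on simulated data with known changes. A log2 change of 1 was called in 10% of such genes for IL4 in AAVS pools and 48% for IL4 in CREBBP pools. It was called in 31% for the target at baseline and 6% for the target with IL4. For the difference in response it was called in 10%, and among lines in 32%. A log2 change of 2 was called in 60% to 96%. Members and lists were chosen with earlier results of these data known. Genes were named if they were members, overlapped one, were among the 3 called genes of a list with the largest change or its 3 most abundant markers, or were among the 3 nearest profiles; other genes in lists of 5 or fewer were named after their values were seen. Some items are not reported here.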

Additional observations from a re-analysis of the deposited data

Results flagged for a closer look

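Of 40 groups of 4 libraries (10 factors in 4 groups), 4 held a library whose gap to its nearest neighbour was, as a share of the range of the group, above Dixon's 95% critical value, where chance gives about 1 in 20. PAX5 was highest in line 1 of AAVS IL4 (524 CPM) and in line 1 of CREBBP baseline (516 CPM). POU2F2 was highest in line 1 of CREBBP baseline (262 CPM). BACH2 was lowest in line 2 of CREBBP IL4 (0.646 CPM).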

How the results depend on the processing

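No factor passed the test in any of the 5 comparisons of IL4 and target under any of the alternatives run. Of 476 values of the factors under these alternatives, 417 kept direction and call, 41 changed sign (none of them called), and 15 lost and 3 gained a call, all among lines. Values among lines are spans, which cannot change sign, and in the other 5 comparisons no factor had a call to lose.

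The counts of all genes called moved more. Without the filter on low counts they were 1851 (IL4 in AAVS pools), 40 (IL4 in CREBBP pools), 586 (target at baseline), 3466 (target with IL4) and 1191 (difference in response). With the DESeq2 test they were 2062, 1, 514, 4154 and 1100 in the same order. Without the replicate block 540 genes were called for the target with IL4 and 2 for the difference in response; the block changed no call of a factor in these comparisons. Leaving out 1 line gave 64 to 1035 genes (IL4 in AAVS pools), 0 to 515 (target at baseline), 25 to 2547 (target with IL4), 16 to 264 (difference in response), and 4504 to 8453 genes and 2 to 5 factors among lines. The cause of these shifts was not tested.

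For IL4 in AAVS pools, sign changes on the log2 scale were found for PAX5 (-0.038 with DESeq2 size factors, -0.12 without the filter, -0.038 with DESeq2, -0.0058 without the replicate block, -0.068 to 0.048 leaving out a line), MEF2C (-0.028, -0.11 and -0.028 with DESeq2 size factors, without the filter and with DESeq2, -0.22 to 0.12 leaving out a line), BCL6 (-0.027 without the filter) and BACH2 (-0.015 without the block, -0.056 to 1.16 leaving out a line). For IL4 in CREBBP pools, BACH2 was at 8.02e-05 without the block and -0.54 to 0.025 leaving out a line, POU2F2 at -0.43 to 0.039 and EBF1 at -0.042 to 0.10. For the target at baseline, leaving out a line gave -0.14 to 0.091 (POU2AF1), -0.27 to 0.087 (MEF2B) and -0.34 to 0.22 (BACH2). For the target with IL4, POU2AF1 was at 0.033 without the filter, 0.050 without the block and -0.13 to 0.22 leaving out a line, POU2F2 at -0.010 with DESeq2 size factors, -0.010 with DESeq2 and -0.27 to 0.43 leaving out a line, and BCL6 (-0.019 to 0.25), PAX5 (-0.34 to 0.079), SPI1 (-0.081 to 0.25) and MEF2C (-0.22 to 0.22) changed sign only when a line was left out. For the difference in response, BACH2 was at 0.11 without the block and -1.72 to 0.073 leaving out a line, PAX5 at -0.26 to 0.043 and POU2AF1 at -0.13 to 0.22.

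Intervals cover the spread between these libraries, and the 26 counts of BACH2 in CREBBP IL4 line 2 were the fewest of any factor.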
